A study of Rattus norvegicus with 2 samples.

Results

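A set of transient receptor potential (TRP) channels, many of which respond to heat, cold or plant terpenes, was examined in whole blood RNA of rats given lavender oil (LO). The set was fixed by name and held 10 genes, Trpv1, Trpv2, Trpv3, Trpv4, Trpa1, Trpm8, Trpm2, Trpm4, Trpm7 and Trpc1. A probe was found through the RefSeq accession printed on the array for 7 of these genes, with 1 probe each, among 41009 probes in all. The accessions of Trpv3, Trpm4 and Trpm7 matched no probe, and these 3 genes were not analysed here. Trpv3 is the neighbour of Trpv1 on chromosome 10 in the GRCr8 gene table.

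TRP channels are cation channels of the cell membrane, and many of them let calcium into the cell. They are best known from sensory nerve endings and skin, where heat, cold, menthol, capsaicin, camphor and other plant compounds open them, and lavender oil is itself a mixture of terpenes, mainly linalool and linalyl acetate. Some members also work in white blood cells, where Trpm2 responds to ADP-ribose and oxidants and Trpv2 takes part in calcium entry.

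The LO rats received 5 mg/kg of oil from Lavandula angustifolia in 10% ethanol, and the control rats received 0 mg/kg in the same diluent, both into the stomach once daily on 13 days. All 12 were males aged 7 weeks, 6 in each group. The strain is F334 in the growth protocol of the labels and Wistar in their strain field, and the venous blood came from the heart and portal vein by the labels. The RNA of each group was combined into 1 pool, so that no spread between rats was measured and no test between the pools was possible. On array 1 LO was labelled with Cy5 and control with Cy3. The labelling was reversed for array 2, and the arrays count as 1 replicate.

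The deposited scanner output gave, for each spot, a processed signal (background subtracted and dye normalized, in intensity units), a rating of whether each channel was well above background, the ratio of the channels and a p from an error model of the spot. In blood, the red cell, platelet and neutrophil markers were well above background in all 4 channels (2 pools, each in 2 dyes) for 6 of 6, 5 of 5 and 6 of 7 probes. Over the probes, array 1 and array 2 correlated in log2 LO/control at a Pearson r of -0.67, which is below 0 although the ratios had been turned by the labelled dyes. The dyes and the pools are stated in the labels, and the directions given here follow them. For members well above background in all 4 channels, each ratio is therefore given on both arrays, with an LO part and a dye part. The LO part is the mean of both arrays' LO/control log2 ratios, and the dye part is the mean of their Cy5/Cy3 log2 ratios. For many genes of the other lists only the LO part is given, and it can average ratios of opposite sign. The dye part is also the value that the LO/control ratio would take, apart from its sign, if the dyes of 1 array were the other way round from the label. Bright probes, a term used here for those well above background in all 4 channels, numbered 15386, and their LO part had an SD of 0.12 and the dye part an SD of 0.30.

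Of the 7 TRP probes, 4 were well above background in all 4 channels, namely Trpv1, Trpv2, Trpv4 and Trpm2. Trpm8 was well above background in 1 channel, and Trpa1 and Trpc1 in none. Over all probes, 37.5% were well above background in all 4 channels and 41.1% in no channel. No TRP spot was flagged as non-uniform or as an outlier. The lowest processed signal so rated lay between 50.2 and 54.9, depending on the channel.

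**Figure D1:**
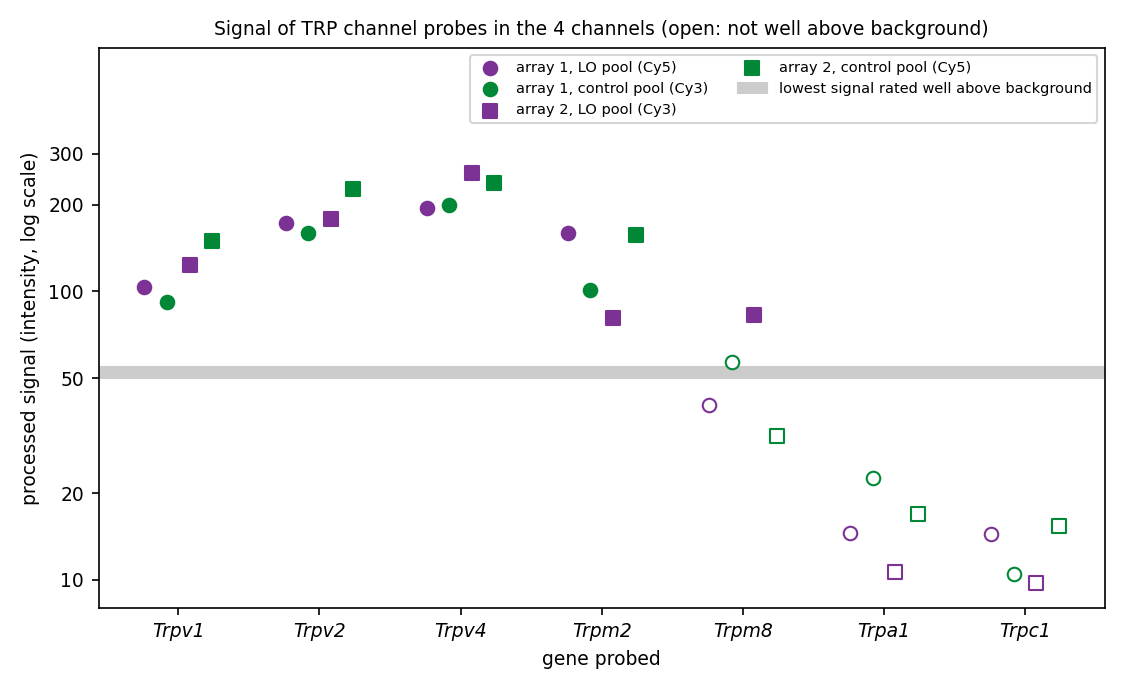
Processed signal (intensity, log scale) of the 7 TRP probes in the LO pool (purple) and the control pool (green) on array 1 (circles) and array 2 (squares); for Trpv1 the point is the mean of 10 spots. Filled symbols were rated well above background and open ones were not, and the grey band spans the lowest signals so rated in the 4 channels (50.2 to 54.9). Trpv1, Trpv2, Trpv4 and Trpm2 lie above the band in every channel, while levels of different probes cannot be compared with each other.

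Trpv1 encodes the receptor for capsaicin and noxious heat. Its probe was printed on 10 spots, which gave the only repeated measurement within an array among the members. On array 1 the signal was 103 ± 22.1 in the LO pool (SD, n = 10 spots) and 92.3 ± 20.7 in the control pool, with 10 of 10 and 8 of 10 spots well above background. On array 2 it was 124 ± 29.0 in the LO pool and 150 ± 18.2 in the control pool, and all 10 spots were well above background in both. The pool that was brighter thus differed between the arrays, and on both it was the pool in Cy5. This depended on the normalization, since by median centring of the background-subtracted signals the LO/control log2 ratio of Trpv1 was below 0 on both arrays (-0.07 and -0.24), with a dye part of 0.09.

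The LO/control log2 ratio of Trpv1 was 0.17 ± 0.20 on array 1 (SD over spots) and -0.30 ± 0.25 on array 2. It was above 0 in 8 of 10 spots on array 1 and below 0 in 8 of 10 spots on array 2. The LO part was -0.07 ± 0.15, from -0.27 to 0.19 over the spots, with 7 spots below 0 and 3 above. The dye part was 0.23 ± 0.17 and was above 0 in 9 of 10 spots. The spots are repeats of the same labelled RNA and show the error of measurement, not the spread between rats. The SD of the ratio between spots was 0.20 and 0.25 on the 2 arrays, against a median of 0.083 and 0.070 over the 108 probes that had at least 8 spots and were well above background in all 4 channels. Those probes were not matched to Trpv1 for signal, with for example 118 for Mmp9 and 6311 for Calca in the LO pool on array 1. Whether Trpv1 is noisier than probes of like signal was not tested. The p of the scanner software (Feature Extraction) was under 0.01 in 0 of 10 spots on either array, with the lowest at 0.227 on array 1 and 0.0532 on array 2.

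**Figure D2:**
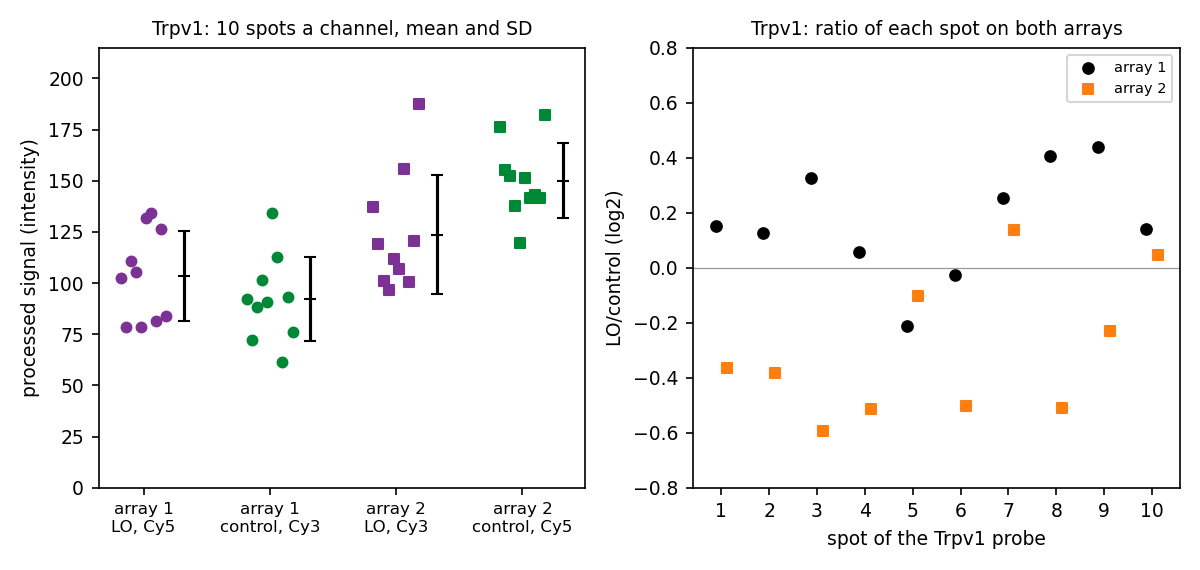
Left, processed signal (intensity) of the 10 Trpv1 spots in each channel, with mean and SD. Right, LO/control log2 ratio of each spot on array 1 (black circles) and array 2 (orange squares). The LO and control signals overlap on both arrays, and 8 of 10 spots are above 0 on array 1 whereas 8 of 10 are below 0 on array 2, as normalized by the authors (by median centring the means are -0.07 and -0.24).

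Trpv2 encodes a relative of Trpv1 that opens at higher temperatures and is also found in macrophages. Its signal was 173 in the LO pool and 159 in the control pool on array 1, and 179 and 227 on array 2. Both LO values lay between the control values, so that the pools overlapped. LO over control gave 1.09 for array 1 and 0.786 for array 2, with log2 errors of 0.27 and 0.25 by the authors' error model of the single spot. The LO part was -0.11 ± 0.19 (model error), and the dye part 0.24.

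Trpv4 encodes a channel for warmth and cell swelling. Its signal was 195 in the LO pool and 200 in the control pool on array 1, and 257 and 238 on array 2. Both control values lay between the LO values. The ratio of LO to control was 0.974 and then 1.08. The LO part was 0.04 ± 0.18 and the dye part -0.08, and both were smaller than those of Trpv1, Trpv2 and Trpm2. The difference between the pools was within the model error on both arrays. Its sign on each array depended on the normalization, with log2 ratios of 0.15 and -0.19 by median centring and of 0.09 and -0.13 by normexp with loess, and dye parts of 0.17 and 0.11.

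Trpm2 encodes a channel opened by ADP-ribose, with roles in the oxidant response of phagocytes and in the sensing of warmth. Its signal was 160 in the LO pool and 101 in the control pool on array 1, and 80.7 and 157 on array 2. Here the channels sorted by dye, since both Cy5 values (160 and 157) lay above both Cy3 values (101 and 80.7), while the pools overlapped. LO exceeded control 1.58-fold on array 1, where the Feature Extraction p was 0.0191, and the ratio was 0.515 on array 2, where it was 0.00176. The Cy5/Cy3 ratio was 1.58 and 1.94. The LO part was -0.15 ± 0.21, and the dye part was 0.81. By normexp with loess the dye part was 0.28 and Trpm2 no longer passed 1.5-fold on both arrays, while by median centring it was 0.71. The normexp setting added an offset of 50 to each signal, which by construction shrinks the log2 ratios of weak probes. The background-subtracted signals of Trpm2 ran from 29.3 to 61.3. With the authors' normalization, of the 15386 bright probes, 2.01% had a larger dye part in absolute size than Trpm2 and 18.4% a larger LO part.

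Trpm8 encodes the receptor for cold and menthol. Its signal was 40.4 in the LO pool and 57.1 in the control pool on array 1, and 83.0 and 31.6 on array 2. Only the LO pool on array 2 was well above background, and again the dyes did not overlap, with both Cy3 values (57.1 and 83.0) above both Cy5 values (40.4 and 31.6). The scanner's ratio of LO to control was 0.708 and then 2.63, and the authors' Feature Extraction error model put p at 0.333 and 0.00548. With the control pool dim on both arrays and LO dim on array 1, no fold between the pools is given.

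Trpa1 encodes the receptor for mustard oil and other irritants. Its signal was 14.6 in the LO pool and 22.5 in the control pool on array 1, and 10.7 and 17.0 on array 2, none of them well above background. No fold is given for this reason. Between 1 and 30 of the 153 negative control spots had a background-subtracted signal at or above that of Trpa1, depending on the channel. Trpc1 encodes a channel subunit of receptor- and store-operated calcium entry. Its signal was 14.4 in the LO pool and 10.5 in the control pool on array 1, and 9.75 and 15.3 on array 2. Between 24 and 110 of the 153 negative control spots were at or above it, and no fold is given. A low signal of 1 probe limits only what this probe can show. By contrast, 0 negative control spots reached Trpv1, Trpv2, Trpv4 or Trpm2 in any channel, and at most 2 of 153 reached Trpm8.

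**Figure D3:**
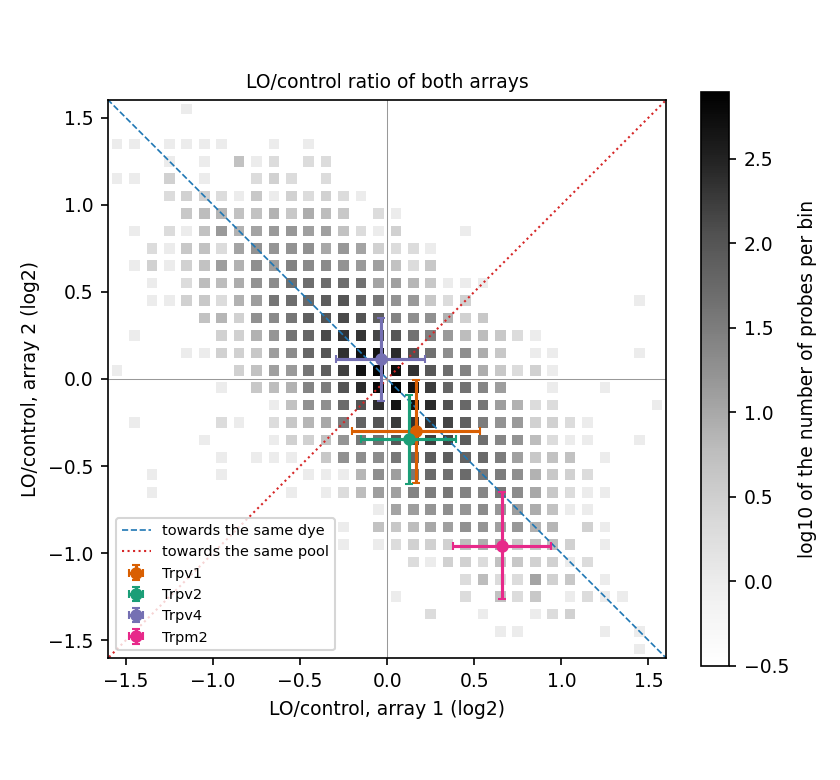
LO/control log2 ratio on array 1 against that on array 2 for the 4 TRP probes well above background in all 4 channels, with the errors of the authors' error model as bars (for Trpv1 the mean error of its spots). Grey squares count all such probes in bins of 0.1, within the axis range. Trpv1, Trpv2 and Trpm2 lie below 0 on array 2 and above 0 on array 1, along the broken line on which the dye and not the pool is followed, and Trpv4 lies near 0. Median centring puts Trpv1 below 0 on both arrays and turns the signs of Trpv4.

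The study's methods set a Feature Extraction p under 0.01 and, for the dye swap, a change up on 1 chip and down on the other. Asked here of each array and in the same LO/control direction, this called 0 of 7 TRP probes. Over all probes 0.0219% passed (9 of 41009), 0.00975% higher and 0.0122% lower in LO. The paper reported many more differentially expressed genes from these arrays, so the rule as asked here did not return the study's selection. In 0 of 7 the p was under 0.01 on both arrays towards the same dye, against 2.64% of all probes. A limit of 1.5-fold on both arrays in the same LO/control direction was passed by 0 of 7 TRP probes and by 1% of all probes, 0.566% higher and 0.434% lower in LO. Towards the same dye it was passed by 1 of 7, Trpm2, and by 19.9% of all probes, with 8.73% of all probes towards Cy5, as Trpm2 was. With a p under 0.05 on both arrays, 1 of 7, again Trpm2, was called towards the same dye, against 6.58% of all probes. Each array alone gave other counts. The p was under 0.01 for 0 of 7 on array 1 (5.95% of all probes) and for Trpm2 and Trpm8 on array 2 (6.29%), and 1.5-fold was passed by Trpm2 and Trpa1 on array 1 (32.9%) and by Trpm2 and Trpm8 on array 2 (32.9%).

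The precision of single spots limits these counts. With the authors' error model, a p under 0.01 would have needed a ratio of at least 1.58 on array 1 and 1.53 on array 2 for Trpv4, 1.63 and 1.57 for Trpv2, and 1.65 and 1.73 for Trpm2. For Trpm8 it would have needed 2.51 and 2.45. For Trpv1 the mean error of a spot corresponded to 1.93 and 1.69. Ratios nearer to 1 could not pass this rule. These limits apply to the ratio of each array, which holds the dye part as well as any difference between the pools. The dye part, 0.81 for Trpm2, enters the 2 arrays with opposite sign. On the array where it opposes the pools, their difference would have to exceed the limit given. A difference in a type of blood cell cannot be told apart from a difference in RNA per cell.

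The median LO part of the 4 TRP probes well above background in all 4 channels was -0.09, from -0.15 to 0.04, with 3 below 0 and 1, Trpv4, above (-0.02 for Trpv4 by either other normalization). Over all such probes the median was -0.0026. The median of array 1 alone was 0.15 and that of array 2 alone was -0.32, so that the direction of the median was not the same on both arrays.

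Among 18 other genes of the TRP family, 9 had a probe, with 11 probes in all. Of these, 1 was bright and 7 had no channel well above background (37.5% and 41.1% of all probes). The bright probe belonged to Trpm1, a channel of retinal bipolar cells and pigment cells. Its signal was 104 in the LO pool and 165 in the control pool on array 1, and 202 and 122 on array 2, so that both Cy3 values lay above both Cy5 values. The LO part of this probe was 0.03 and its dye part -0.69. A further probe of Trpm1 was well above background in 1 channel only. The fold limit in the same LO/control direction was passed by 1 of the 11 probes, that of Trpc4, beside 1% of all probes. No channel of the Trpc4 probe was well above background, and therefore no fold is given. The p threshold on both arrays was passed by 0 of 11 in the same LO/control direction and by 0 towards the same dye. The fold limit towards the same dye was passed by 4 of 11, beside 19.9% of all probes. Trpc2, Trpc5, Trpv6, Mcoln2 and Mcoln3 were dim in every channel.

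Genes that act on the channels were measured from lists. Phospholipase C and the supply of its lipid substrate PIP2, which regulates many TRP channels, had a probe for 11 of 13 genes. Of their 13 probes 5 were well above background in all 4 channels, among them Plcg1, Plcg2, Pip5k1a and Pip5k1b, with LO parts from -0.13 to 0.05. A further Pip5k1a probe was dim in every channel. Store-operated calcium entry had a probe for 5 of 8 genes, and 5 of 9 probes were bright, with LO parts from -0.21 for Itpr2, a calcium release channel, to 0.08 for Orai3, a pore subunit. On array 1 and array 2 the log2 ratios were -0.73 and 0.31 for this Itpr2 probe and -0.39 and 0.56 for Orai3. The sign thus changed between the arrays for both genes. Further Itpr2 probes, well above background in 2 channels and in 0, had LO parts of -0.12 and -0.11. Orai1, the main pore subunit in lymphocytes, had an LO part of 0.04. Calmodulins and kinases that act on TRP channels had 9 of 15 probes bright, with LO parts from -0.34 to 0.07. The p threshold and the fold limit in the same LO/control direction were passed by 0 probes in each of these 3 lists. Towards the same dye the p threshold was passed by 1, 0 and 0 probes (2.64% of all probes) and the fold limit by 2, 1 and 2 (19.9%), in the order given.

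The genes that make or remove ADP-ribose, the ligand of Trpm2, had a probe for 6 of 8 genes and 6 of 8 probes bright. Bst1 and Parp1, which consume NAD, had LO parts of 0.01 for Bst1 and of 0.04 and 0.11 for the 2 probes of Parp1. Cd38, an enzyme that forms ADP-ribose, had a signal of 163 in the LO pool and 99.3 in the control pool on array 1, and 78.8 and 174 on array 2, at its bright probe. As for Trpm2, both Cy5 values were above both Cy3 values, with a dye part of 0.93 and an LO part of -0.22. A further Cd38 probe, well above background in 3 channels, had a dye part of 0.67 and an LO part of 0.35, so that the LO parts of this gene differed in sign. Nudt5, which breaks down ADP-ribose, went towards the other dye, with a signal of 68.7 in the LO pool and 146 in the control pool on array 1, of 174 and 92.5 on array 2, and an LO part of -0.09. The p threshold and the fold limit in the same LO/control direction were passed by 0 of these 8 probes. Towards the same dye the p threshold was passed by 1 of 8, Nudt5 (2.64% of all probes), and the fold limit by 2 of 8, Nudt5 and the bright Cd38 probe (19.9%).

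Other sensors of temperature and touch had a probe for 6 of 8 genes. Piezo1, a mechanosensitive channel of red cells, and P2rx3, an ATP receptor of sensory neurons, had a probe that was well above background in all 4 channels. Their LO parts were -0.27 for Piezo1 and -0.01 for this P2rx3 probe. A further P2rx3 probe, well above background in 3 channels, had an LO part of -0.32. The probes of Kcnk2, Kcnk4 and Kcnk10, potassium channels that respond to heat and stretch, were dim in every channel.

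**Figure D4:**
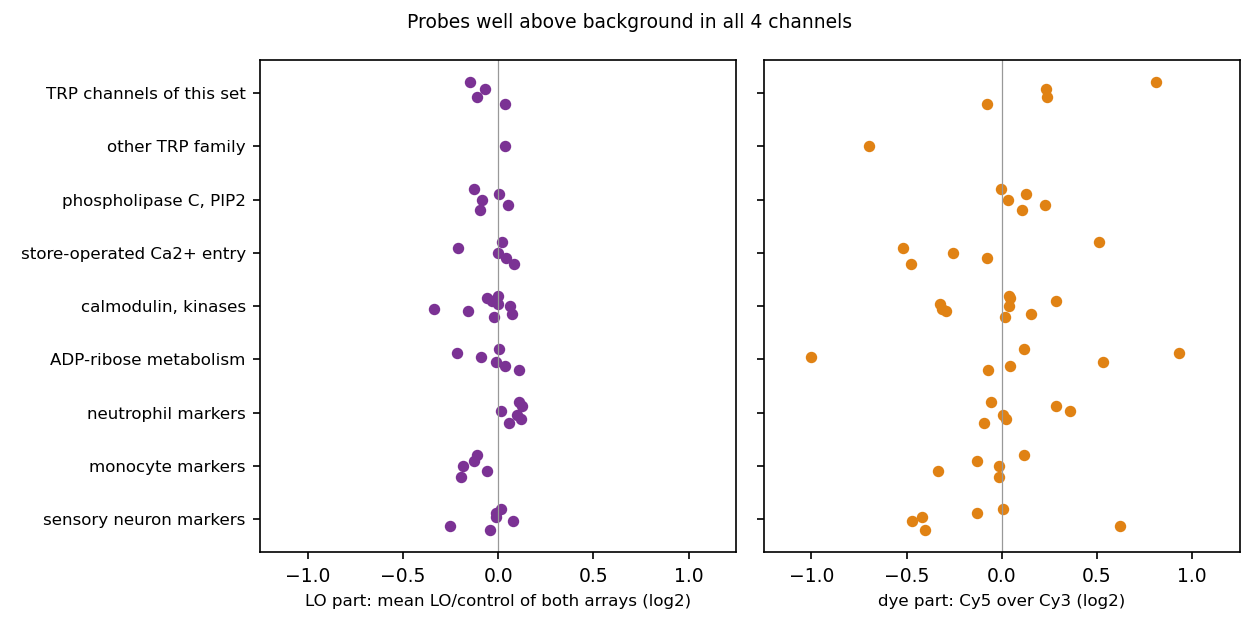
LO part (left, log2) and dye part (right, log2) of each probe well above background in all 4 channels, by gene list, 1 point per probe. The LO parts of the 4 TRP probes run from -0.15 to 0.04 and their dye parts from -0.08 to 0.81.

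Markers of the cells that could carry these transcripts were measured beside the members. The sensory neuron list had 6 of 16 probes bright and 6 in no channel. Scn9a, Scn11a and Tac1 were dim in every channel, while Scn10a, Mrgprd, Ret, P2rx3 and Calca each had a bright probe. A further Calca probe was well above background in 2 channels only, so that the probes of this gene disagreed, as did those of Ret, with 1 of 3 dim in every channel. The LO parts of the bright probes of the list ran from -0.25 to 0.08. The epithelial list had 4 of 8 probes bright, with LO parts from 0.01 to 0.17, and Epcam and Cdh1 were dim in every channel.

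Of the phagocytes, in which Trpm2 and Trpv2 are known, the monocyte list had 5 of 6 probes bright. Their LO part was below 0 in 5 of 5, from -0.20 to -0.06, beside 51.3% of all bright probes. Only Csf1r and Lyz2 were below 0 on both arrays (12.7% of all bright probes), with LO parts of -0.19 and -0.20. The bright probes of Cd14, Cd68 and Cx3cr1 had a different sign on each array. A further Cd14 probe, well above background in 1 channel only, was above 0 on both arrays, with an LO part of 0.38. The summed signal of the list was 28628 in the LO pool and 33211 in the control pool on array 1, and 30832 and 34542 on array 2, of which Lyz2 alone made up 88.5% to 89.7%. The neutrophil list had 6 of 7 probes bright, with an LO part above 0 in 6 of 6, from 0.01 to 0.12, beside 48.7% of all bright probes. Of these, Cxcr2, Ncf1 and S100a8 were above 0 on both arrays (11.7% of all bright probes), and the other 3 changed sign between the arrays. The summed signal was 32824 and 32146 on array 1 and 33434 and 30686 on array 2, LO before control, of which S100a9 made up 59.9% to 63.5%. In both lists 0 probes passed the p threshold or the fold limit in the same LO/control direction. Other blood lists were mixed in sign. The LO part of bright probes was above 0 in 3 and below 0 in 2 T cell probes (-0.42 to 0.11). These counts were 2 and 4 for red cells (-0.09 to 0.05) and 3 and 2 for platelets (-0.01 to 0.07). The 1 bright B cell probe had an LO part of 0.10, and the 2 endothelial ones 0.03 and 0.17. The part of any of these cell types in the values of Trpm2 and Trpv2 was not tested.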

How the data were processed

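RNA from whole blood, 1 pool of LO rats and 1 of control rats, was hybridised to 2 dual-colour Agilent arrays with the dyes swapped. The authors extracted the signals with Agilent Feature Extraction 11.0.1.1, per the submitters' processing notes. The deposited output holds median and background-subtracted signals and processed signals after LOWESS dye normalization (intensities), a log10 ratio with Cy5 as numerator, its error (used here as a score of precision), a p-value and quality flags. The deposited value table gives no scale. It equalled the log10 ratio of the processed signals within 0.0001 in all 43379 features.

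The sign was set so that LO is the numerator, and values were converted to log2. Control spots and 338 features flagged on either array were left out. Spots of the same probe were averaged, with the median for p, and a probe counted as well above background where most of its spots did. The p is not adjusted and describes spots, not rats. Genes were named through RefSeq accessions in a GRCr8 table, which gave a symbol for 10767 of 41009 probes. The array design is tied to an older build, so no coordinates are given. All members were to be named, and of other lists up to 4 bright genes and any probe called in the LO/control direction, besides which the genes named for a list's range, for being dim or beside a member were chosen after their values were seen. The members and lists were chosen with earlier results of these data known. The normexp and loess alternative used limma 3.58.1 with an offset of 50, which shrinks the log2 ratios of weak probes. Calls were first tested on simulated data with known changes. These changes were larger than the ratios of the bright TRP probes, and their recovery was required only without a dye effect. The simulation therefore does not show that differences of the size seen here would be called. Alternatives covered the p threshold, fold limit, ratio source, normalization, flags, dim probes and each array alone. The normexp correction was planned on mean signals and used medians, since means were not in the files. Python 3.11.15 and R 4.3.3 were used. Precision is limited by having 2 arrays.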

Additional observations from a re-analysis of the deposited data

How the results depend on the processing

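The count of TRP probes well above background in all 4 channels was 5 with the positive and significant flag, which Trpm8 passes in all 4. It was 4 under the other alternatives tried, where either array alone counts only the 2 channels of that array. The count in no channel was 1 with that flag, which Trpa1 passes in 1 channel, 3 with array 1 alone, where Trpm8 is dim in both channels, 2 with array 2 alone, and by construction 0 and 0 with either filter on dim probes. At a p under 0.05 on both arrays 1 probe, Trpm2, was called towards the same dye, against 6.58% of all probes, and 0 in the same LO/control direction. With either array alone the direction rules are the same by construction. The p threshold was then passed by 0 probes on array 1 and by 2 on array 2, and 1.5-fold by 2 on either array. Past 1.5-fold on both arrays in the same LO/control direction there was 1 probe with the value table, Trpa1, in which the scanner output sets the ratio of array 2 to 0 and both pools were dim. Towards the same dye there were 2 with a limit of 1.2-fold, Trpm2 and Trpm8, and 0 after normexp with loess, where the dye part of Trpm2 was 0.28. The offset of 50 used with normexp shrinks the log2 ratios of weak probes by construction. The median LO part ran from -0.32 with array 2 alone to 0.15 with array 1 alone. The LO part of Trpv4 was -0.02 by median centring and by normexp with loess, and those of Trpv1, Trpv2 and Trpm2 were below 0 under both. On the single arrays median centring turned the sign of Trpv1 on array 1 and of Trpv4 on both, and normexp with loess that of Trpv4 on both. Except where stated, the cause of these changes was not tested. Signals near background limit Trpm8, Trpa1 and Trpc1. No paired analysis was possible because the result comes from no test and both arrays hold the same 2 pools.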
